A study of Mus musculus with 47 samples.

Results

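Potassium channel genes were taken as every row of the count table whose symbol starts with Kcn, which gave 94 of 22800 rows. Of these, 67 encode subunits that form a pore, 10 encode electrically silent subunits that only work inside channels of other families, 16 encode auxiliary subunits, and Kcnrg encodes a soluble protein related to the channels but is not itself a channel subunit. The cells were NPY-positive interneurons of NPY-hrGFP mice, a strain in which a green fluorescent protein marks cells that express neuropeptide Y, taken at 3 to 8 weeks of age from animals of both sexes. The cytosol of each cell was drawn into a patch pipette and sequenced as 1 library, from superficial layers of auditory cortex (AC, 10 cells), from CA3 of the hippocampus (13 cells) and from CA1 (3 cells). The columns were set by the rule that defines the gene set, out of 20 AC, 21 CA3 and 3 CA1 columns among 47 in all. Neither the labels nor the methods name the mouse of a cell, so each region counts as 1 sample. Values are therefore described with the SD over cells, and no test between regions was made.

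Potassium channels set the resting potential, shape the action potential and decide how fast a neuron can fire again. Voltage-gated (Kv) channels are tetramers of subunits, mostly of the same family, so the mix of subunits that a cell transcribes limits which channels it can build. In cortical and hippocampal interneurons, Kv3 channels are best known for rapid repolarisation and high firing rates, small-conductance calcium-activated channels for the afterhyperpolarisation, and tandem-pore channels for the leak current at rest.

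What the pore-forming genes share at the sequence level is the selectivity filter, a short signature that lets potassium pass and holds back sodium. A search of the longest complete coding sequence of each gene for 5 codons in a row (threonine or serine, any residue, glycine, then tyrosine, phenylalanine or leucine, then glycine) found it in 67 of 67 pore-forming genes and 10 of 10 silent ones. It was found in 0 of 16 auxiliary genes and not in Kcnrg. All 14 tandem-pore genes held it at 2 places, as did 2 of the 53 other pore-forming genes (Kcna6 and Kcnh2). The coding stretches below are shown for the pore-forming genes whose detection differed most between the regions (Kcnk1, Kcnc2, Kcnb2), for a calcium-activated channel gene read in CA3 but not in AC (Kcnn3) and for a silent (Kcns3) and an inwardly rectifying (Kcnj3) subunit. Each runs 5′ to 3′ over 75 bases of GENCODE vM21 transcripts (GRCm38), with the 15 bases of the filter in capitals.
Kcnk1, first filter: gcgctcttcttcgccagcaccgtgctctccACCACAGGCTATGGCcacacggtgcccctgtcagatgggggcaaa
Kcnk1, second filter: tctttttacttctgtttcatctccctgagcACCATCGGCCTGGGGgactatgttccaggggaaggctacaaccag
Kcnc2: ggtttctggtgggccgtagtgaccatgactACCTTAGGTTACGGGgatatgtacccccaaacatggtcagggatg
Kcnb2: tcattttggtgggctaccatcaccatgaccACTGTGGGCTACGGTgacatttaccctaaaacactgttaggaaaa
Kcns3: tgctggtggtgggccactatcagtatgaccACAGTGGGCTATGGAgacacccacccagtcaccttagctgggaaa
Kcnn3: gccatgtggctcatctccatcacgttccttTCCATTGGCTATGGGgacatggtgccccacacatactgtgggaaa
Kcnj3: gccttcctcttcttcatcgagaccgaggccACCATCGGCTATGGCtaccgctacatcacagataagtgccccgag
Kcnk1 lies at chr8:125995170-126030685 on the plus strand, Kcnc2 at chr10:112271121-112467024 (plus) and Kcnb2 at chr1:15287254-15723750 (plus). Kcns3 lies at chr12:11090202-11151056 (minus), Kcnn3 at chr3:89520164-89675132 (plus) and Kcnj3 at chr2:55435970-55598145 (plus). Kcnk1 encodes both of its filters in 1 chain, and these had 33 of the 75 bases in common. Of the 94 genes, 77 shared no stretch of 50 bases with another gene of the set, and the other 17 shared at most 2.81% of theirs.

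Reads per cell ran from 1715012 to 6265431 in AC, from 2229519 to 7949918 in CA3 and from 601781 to 3202430 in CA1. The GABAergic marker list (Gad1, Gad2, Slc32a1, Npy) had reads in all 26 cells with summed levels of 4794 to 26500.2 CPM in AC and 4376 to 16572 CPM in CA3, where CPM (counts per 1000000 reads) are scaled to the total of the cell. Of oligodendrocyte markers, Mbp was read in 2 AC cells, up to 367 CPM in N46, and in 7 CA3 cells, up to 949 CPM in N28, while Mog had no read in the 26 cells. Microglia markers (Cx3cr1, C1qa, C1qb, Csf1r, P2ry12) summed to 0 to 3707 CPM in AC and 0 to 1864 CPM in CA3 (highest in N27). Cx3cr1 itself was read in 3 AC cells, at 404 CPM in N41, 719 CPM in N42 and 497 CPM in N46, and in 1 CA3 cell at 3.14 CPM. Astrocyte markers reached 1089 CPM in N46 and 1015 CPM in N4 of AC but at most 0.421 CPM in CA3, and Aqp4 of that list had no read in the 26 cells. They were read in all 3 CA1 cells, at 82.9 to 882 CPM, the highest in N1, and Mbp was read in 1 CA1 cell (N6, 254 CPM). Of pyramidal neuron markers, Slc17a7 was read in 5 AC cells (up to 102.5 CPM, in N46) and 4 CA3 cells, Camk2a in 8 AC and 11 CA3 cells (medians of 54.4 and 6.32 CPM), and Neurod6 in 1 AC cell. The part of such reads in the values below was not tested, and values without N41, N42 and N46 are given for recomputed genes whose call changed or whose called difference moved by over 1.5 times.

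Of the 94 genes, 61 were read in 1 or more of the 23 AC and CA3 cells. In AC 50 were read and in CA3 57, of which 46 were read in both, 4 only among the AC cells and 11 only among the CA3 cells. No member was read in all 23 cells, and the most widely read one, Kcnc1, was found in 21. Among the 61, 14 were read in 1 to 3 of the 23 cells, 26 in 4 to 9 and 21 in at least 10. In a given cell most of the set had no read. Of 175 detections in AC 82.9% rested on at least 10 reads, and of 295 in CA3 82.4% did.

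AC cells held 8 to 23 of the genes (mean 17.5 ± 5.13, SD, n = 10) and CA3 cells 12 to 32 (22.7 ± 6.02, n = 13), so the ranges overlapped and the difference of -5.19 genes (AC minus CA3) was about the SD within a region. Without the 3 AC cells with Cx3cr1 reads it was -3.12. With each cell thinned to 1715000 reads the means over 20 draws were 17.1 and 21.8. The number of potassium channel genes followed the number of all genes in a cell, with r = 0.90 and rho = 0.88 over the 23 cells (r = 0.92 within AC and 0.85 within CA3), and these counts share the library. As a share of all genes detected, the set made up 0.363% ± 0.0537 in AC and 0.385% ± 0.0536 in CA3. Against total reads r was 0.05 over the 23 cells, -0.40 within AC (rho = -0.66) and 0.22 within CA3 (rho = 0.21). The summed level went the other way, at 3166 ± 642 CPM in AC (2133 to 3922) and 2485 ± 818 CPM in CA3 (777 to 3632). AC cells thus carried fewer potassium channel genes at a somewhat higher sum, with wide overlap in both measures. The 3 CA1 cells had 21, 21 and 26 of the genes and 2876 to 4781 CPM.

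**Figure D1:**
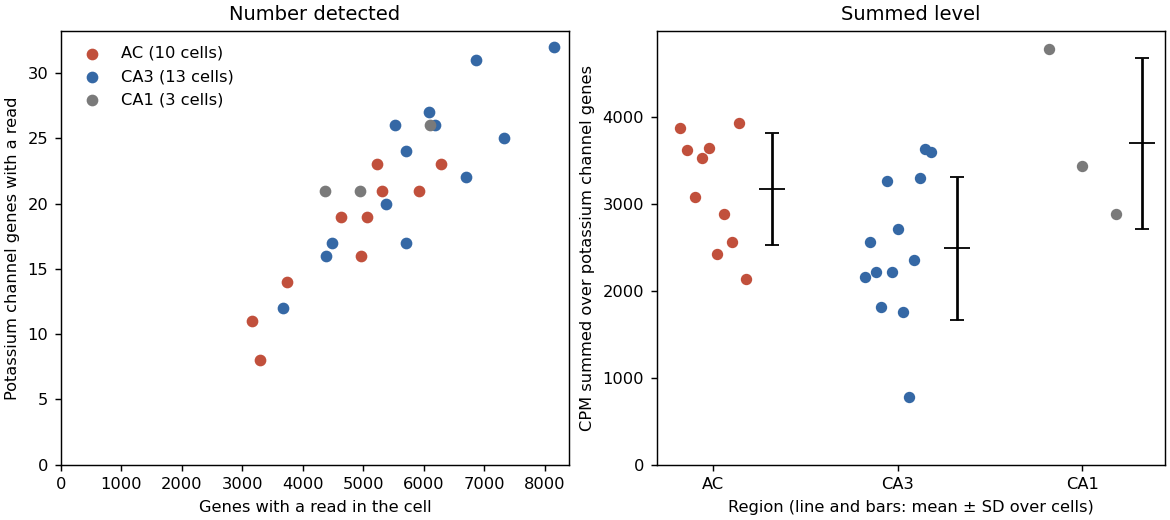
Number of potassium channel genes with a read against the number of all genes with a read in each cell (left), and CPM summed over the set in each cell (right, with mean ± SD over cells), for 10 AC, 13 CA3 and 3 CA1 cells. AC cells run from 8 to 23 genes and CA3 cells from 12 to 32, in both regions rising with the number of all genes. The summed level is 3166 ± 642 CPM in AC and 2485 ± 818 CPM in CA3.

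Any 2 AC cells had a median of 25.0% of their potassium channel genes in common (45 pairs, from 6.90% to 42.9%), where the share is of the genes read in either cell. Any 2 CA3 cells had 34.2% (78 pairs, from 13.8% to 61.5%), and an AC and a CA3 cell 25.0% (130 pairs). By this median AC cells were no more alike among themselves than to CA3 cells. The share also depends on how many genes are read in a cell, which was lower on average in AC, and the part of this was not tested. The gene with the most reads per kb of exon took 11.9% to 31.03% of the set's CPM per kb in AC cells and 21.97% to 48.6% in CA3 cells. Kcnk1 led in 7 of 13 CA3 cells. In AC the lead was more divided, with Kcnab3 in N41, N42 and N46, Kcnn2 in N3X and N7, Kcna3 in N4 and N8, and Kcnk13 in N43.

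**Figure D2:**
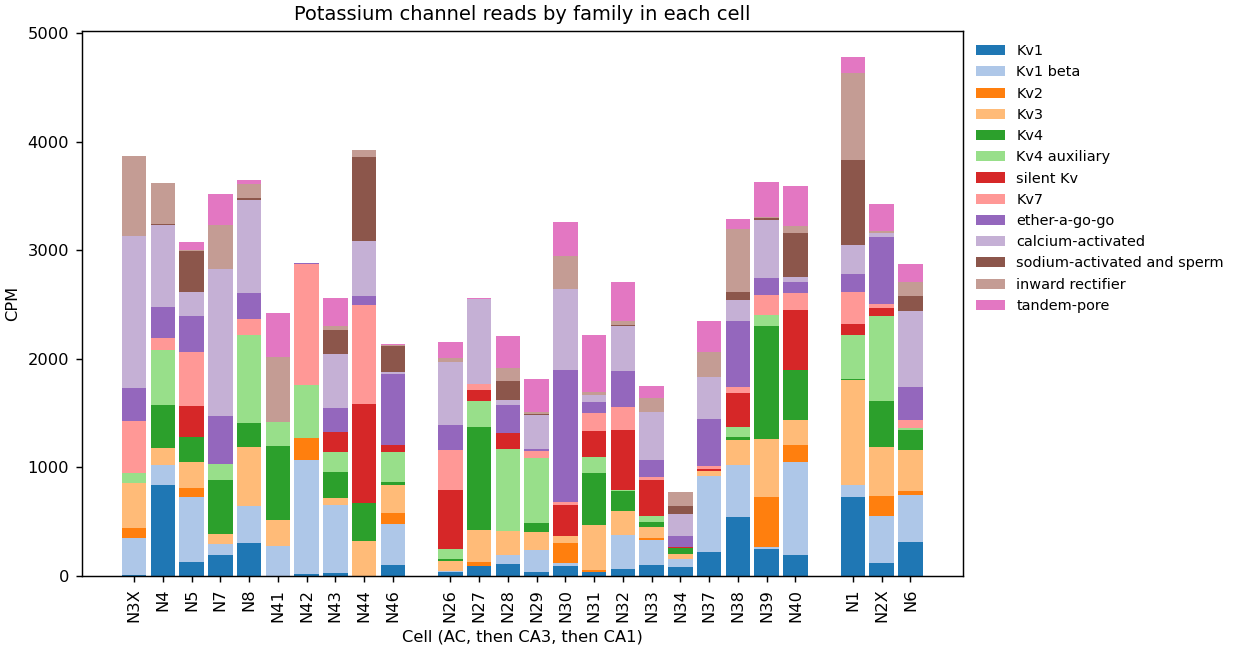
CPM of potassium channel genes in each cell, stacked by family, for the AC, CA3 and CA1 cells from left to right. The tandem-pore segment is present in 12 of 13 CA3 cells, mostly Kcnk1, and in 6 of 10 AC cells.

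To describe differences between the regions, the level of a gene in a cell was taken as log2(CPM + 1), and the mean over AC cells minus the mean over CA3 cells as the difference. A difference of at least 1 on this log2 scale is spoken of as called. Such a difference mixes how many cells had a read with how much those cells had, and a cell with no read is not shown to lack the transcript. Among all genes, 5964 had reads in 10 or more of the 23 cells. Of these, 13.6% were higher in AC by this size and 43.2% higher in CA3, and the median difference of these genes was -0.72. Of the 21 potassium channel genes that met the same minimum, 4 were higher in AC (19.05%: Kcnab1, Kcnc4, Kcnip1, Kcnj6) and 7 were higher in CA3 (33.3%, among them Kcna3, Kcnab2, Kcnh7, Kcnk1, Kcnma1 and Kcns3). Their median difference was -0.27, which is 0.45 above that of all genes. Both shares lay near those of all genes, so the counts are not read as a result about the family. With the median of all genes subtracted, 8 of the 21 were higher in AC and 5 in CA3, against 25.6% and 25.7% of all 5964 genes on that scale. The other 40 genes with reads did not meet the minimum, and 6 of them lay past the size towards AC and 8 towards CA3, against 8.96% and 15.3% of the 7660 genes read in fewer cells than the minimum.

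The share of cells with a read gives a second view, which sets the height of a level aside but still depends on whether a transcript was caught. Over the 13624 genes with a read in the 23 cells, 0.250% were read in a share of AC cells at least 50 points above that of CA3 cells, and 2.11% the other way round. Of the 61 potassium channel genes with a read, 1 was past this mark towards AC (1.64%: Kcnab3) and 4 were past it towards CA3 (6.56%: Kcnk1, Kcnc2, Kcnb2, Kcnab2). Kcnab3 stood at 52.3 points and fell below the mark without any 1 of the 6 AC cells that had it (47.9 points), without the AC cells with Cx3cr1 reads (35.2) and where 10 reads were asked for in a cell (42.3). With 10 reads asked for Kcnb2 fell below it too (-46.2 points), while Kcnk1, Kcnc2 and Kcnab2 stayed past it in each of these settings.

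**Figure D3:**
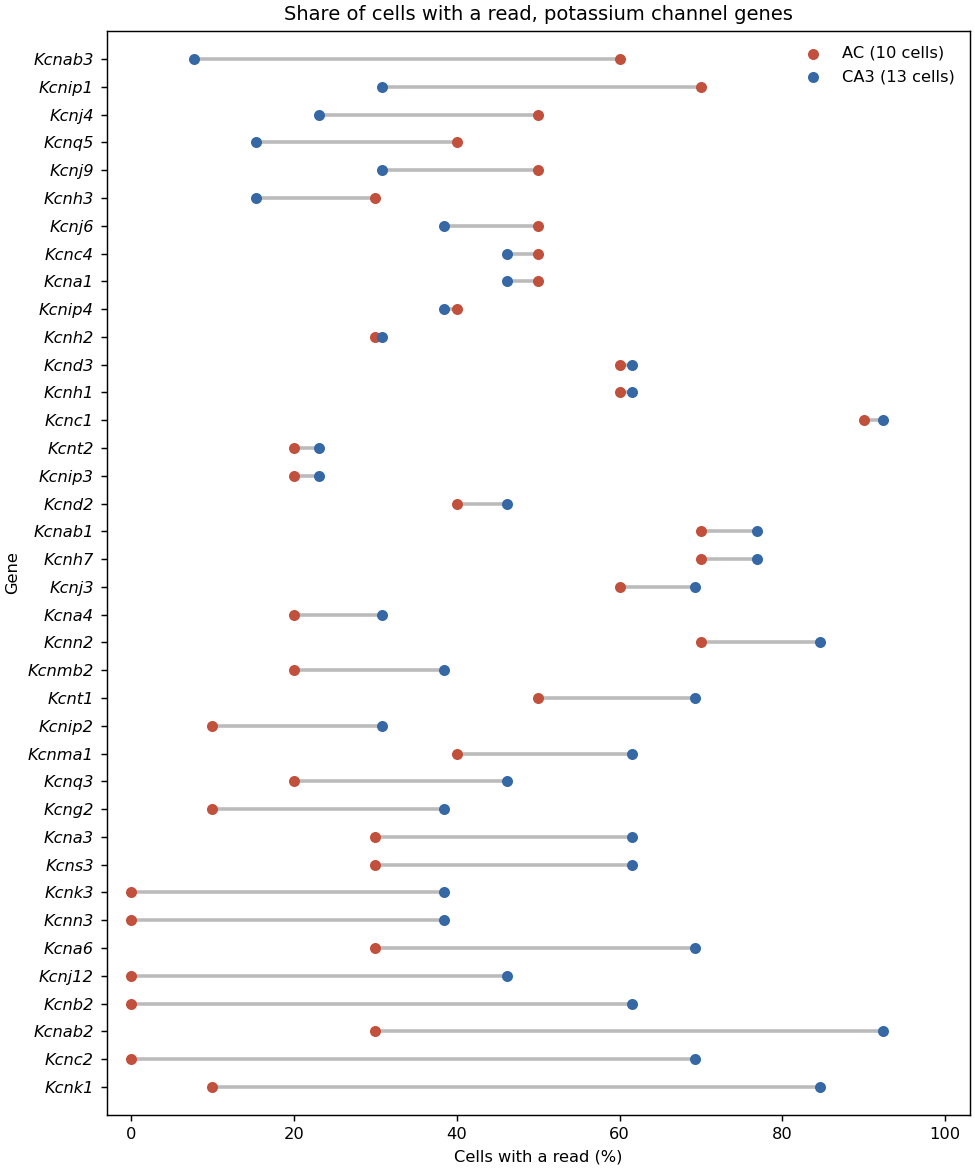
Percentage of cells with at least 1 read in AC (10 cells) and CA3 (13 cells) for 38 potassium channel genes read in at least 5 of the 23 cells, ordered from higher in AC to higher in CA3. Kcnab3 stands at the AC end (60% against 7.69%), Kcnk1 at the CA3 end (10% against 84.6%), and Kcnc1 is near 90% in both.

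Tandem-pore channels carry the leak current that holds a neuron near its resting potential. Kcnk1, which encodes a weakly rectifying leak channel, had the largest difference of the set. In CA3 it was read at 526 CPM in N31, 366 in N40, 356 in N32, 313 in N30, 304 in N29, 298 in N28, 288 in N37, 139 in N26, 112 in N33, 99.9 in N39 and 91.3 in N38, and not in N27 and N34. In AC it was read in N7 alone, at 223 CPM. So 11 of 13 CA3 cells (84.6%, exact Clopper-Pearson 95% interval 54.6 to 98.1) had it and 1 of 10 AC cells did (10%, 0.253 to 44.5), with N7 inside the range of the CA3 cells. The mean log2 levels were 6.62 ± 3.05 in CA3 and 0.78 ± 2.47 in AC, a difference of -5.84, or -5.12 relative to all genes. The difference stayed between -3.42 and -8.32 under every other scaling, pseudocount and cell set tried. With reads summed over cells Kcnk1 stood at 209 CPM in CA3 and 14.7 CPM in AC, 14.2-fold apart, and at 57.9 CPM per kb over both regions it had the highest level per length of the set. A transcript on the opposite strand (Gm45875) overlaps 179 bases of its exons, and whether the counting used strand is not stated. Among CA1 cells it was read in N2X (249 CPM) and N6 (115 CPM).

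The remaining tandem-pore genes were sparse. Kcnk13, which microglia are known to use for their resting potential, was read in 3 AC cells (256 CPM in N43, 78.3 in N5, 0.308 in N46) and in N39 of CA3 (221 CPM). Of these cells N5 had P2ry12 at 191, C1qb at 157 and C1qa at 24.9 CPM, N46 had every microglia marker but P2ry12, N39 had C1qa at 47.04 CPM and N43 had none of the microglia list, and their part in the Kcnk13 reads was not tested. Kcnk2, a mechanically gated channel, was read at 401 CPM in N41 and at no more than 3.59 CPM in 2 CA3 cells. Kcnk3, an acid-sensitive leak channel, was read in 5 CA3 cells and 0 AC cells, but at 0.573 CPM over CA3. Kcnk9 and Kcnk12 had reads in 1 or 2 of the 23 cells, and Kcnk4, Kcnk5, Kcnk6, Kcnk7, Kcnk10, Kcnk15, Kcnk16 and Kcnk18 in none of them. Summed over the family, CA3 cells had a median of 298 CPM and AC cells 16.2 CPM.

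Kv3 channels open only at depolarised voltages and close fast, which allows narrow spikes. Every one of the 23 cells had a read of at least 1 of the 4 genes, at 0.782 to 550 CPM per cell in AC and 44.04 to 534 CPM in CA3, and the regions overlapped in the summed level (difference of the summed level -0.21). Kcnc1 was the most widely detected gene of the set in AC (9 of 10 cells), and in CA3 (12 of 13) it tied with Kcnab2. Its levels in AC were 460.3 CPM in N8, 413 in N3X, 232 in N41, 176 in N46, 155 in N4, and 31.2 to 49.3 in N43, N5, N7 and N44, with no read in N42. In CA3 the 12 cells with a read ran from 2.86 CPM in N30 to 389 CPM in N31, the median of all 13 cells was 44.04 CPM, and N40 had no read. The mean log2 levels of 6.12 ± 2.60 and 5.49 ± 2.66 differed by 0.63, less than the spread of cells. The difference was 1.07 without the AC cells with Cx3cr1 reads, 1.31 without N42 alone and 1.07 with all labelled cells, which is past the size called.

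Kcnc2 was read in 9 of 13 CA3 cells, at 237 CPM in N40, 203 in N39, 100.1 in N29, 59.7 in N26, 39.9 in N33, 20.6 in N31, 11.2 in N34, 3.58 in N30 and 0.639 in N32. None of the 10 AC cells had a read, which allows up to 30.8% of such cells to have one. Over the summed reads, AC was at least 785-fold lower than CA3 (69.2 CPM), with 3 reads over all AC cells as the floor. Without N39, which held 47.7% of the CA3 reads, the bound was 490.3-fold. Both bounds cover these 10 AC libraries only. N45, labelled AC but not among them, had Kcnc2 at 806 CPM, with Gad1 at 1964 and Npy at 281 CPM. The log2 difference was -3.42, or -2.70 relative to all genes. Of the 9 CA3 cells with Kcnc2, 8 also had Kcnc1, the fewest possible since only 1 CA3 cell had no read of Kcnc1. The 9 AC cells with Kcnc1 had it without Kcnc2, which follows from the lack of any Kcnc2 read in AC. These counts thus say nothing on pairing. The gene had 838 CPM in N1 and 245 CPM in N2X of CA1.

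Kcnc4, whose channels inactivate fast, went the other way in level though not in detection. It was read in 5 of 10 AC cells at 289.7 CPM in N44, 204 in N5, 89.2 in N8, 85.9 in N46 and 1.17 in N4. Of 13 CA3 cells 6 had it, at 88.4 CPM in N27, 13.3 in N29 and 0.449 to 1.11 in N31, N39, N38 and N26. The difference was 1.97 (2.69 relative), with mean log2 levels of 2.99 ± 3.67 and 1.02 ± 1.95 that overlap widely. Kcnc1 had the highest CPM per kb of exon of the Kv3 genes in 5 AC and 7 CA3 cells, and Kcnc4 in 3 AC cells and 1 CA3 cell.

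**Figure D4:**
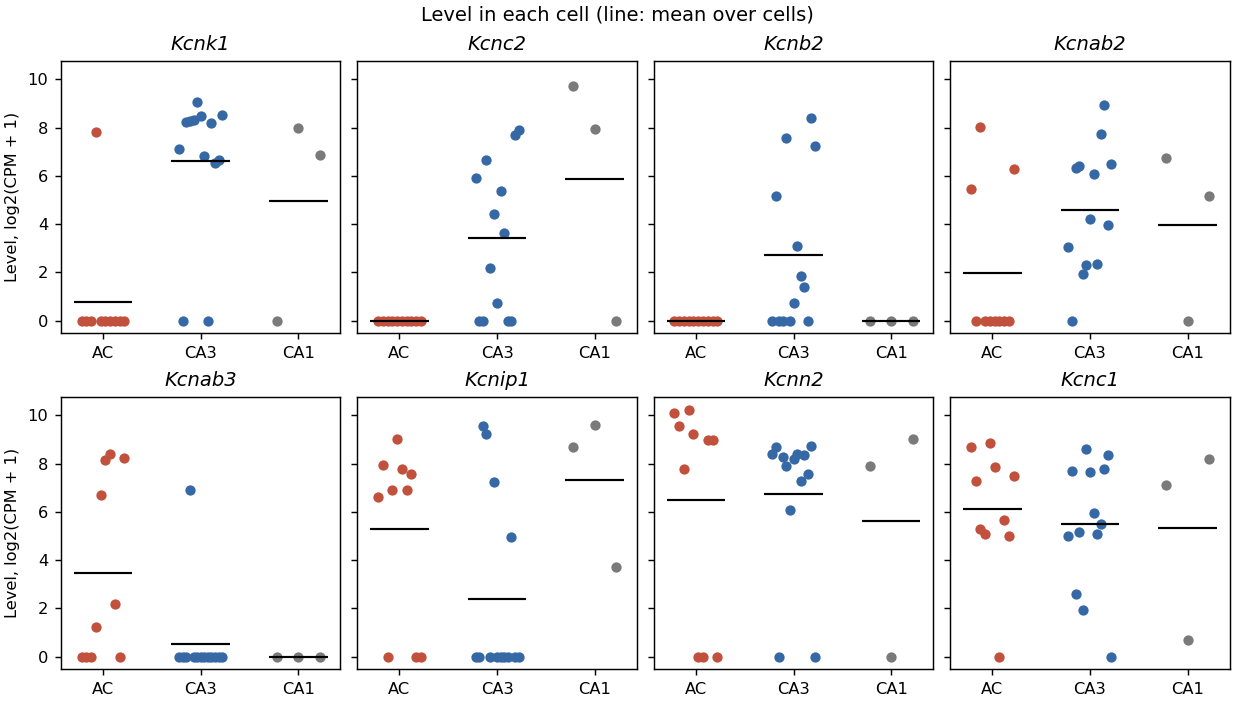
Level, log2(CPM + 1), of 8 potassium channel genes in each AC, CA3 and CA1 cell, with the mean over cells as a line and cells without a read at 0. Kcnk1, Kcnc2, Kcnb2 and Kcnab2 were read in 1, 0, 0 and 3 of 10 AC cells against 11, 9, 8 and 12 of 13 CA3 cells, whereas Kcnn2 and Kcnc1 were read in most cells of both regions.

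Kv2 channels are the slow delayed rectifiers of soma and proximal dendrite. Kcnb2 was read in 8 of 13 CA3 cells, at 335 CPM in N39, 188 in N30, 151 in N40, 34.8 in N27, 7.47 in N33, 2.60 in N34, 1.64 in N37 and 0.639 in N32. It had no read in any AC cell and none in CA1. AC was thus at least 924-fold lower over the summed reads, of which 66.9% in CA3 came from N39 (365-fold without it), and the log2 difference was -2.72.

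Silent subunits join Kv2 channels and change their gating. Kcns3 was read in 3 AC cells (180.4 CPM in N43, 157 in N44, 136 in N5) and in 8 CA3 cells (504 CPM in N32, 469.6 in N26, 308 in N33, 246 in N30, 233 in N31, 153 in N38, 15.2 in N37 and 2.00 in N34), a difference of -2.03 (-1.30 relative) that was -1.09 without the AC cells with Cx3cr1 reads. Of the 8 CA3 cells with Kcns3, 5 also had Kcnb2. Kcng2 was read in 5 CA3 cells at 161 CPM in N38, 153 in N28, 100.4 in N27, 76.7 in N26 and 21.1 in N33, and in 1 AC cell at 1.23 CPM. Its difference was -2.35, and an opposite-strand transcript overlaps 272 bases of its exons. Kcns2 was read in 4 CA3 cells and in no AC cell, with 89.9% of its reads in N40. Kcnf1 lay on the AC side at 2.25, from 751 CPM in N44, 152 in N5 and 60.0 in N46 against 0.272 CPM in N38 of CA3, and the difference without N44 was 1.44. Any silent subunit was read in 4 AC cells and in 11 CA3 cells, with summed medians of 0 and 233 CPM.

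Kv1 channels sit on axons and hold back firing near threshold. Kcna3 was read in 3 AC cells, at 212 CPM in N8, 210.5 in N4 and 98.9 in N5, and in 8 CA3 cells, at 283 CPM in N38, 113 in N28, 70.9 in N34, 45.03 in N32, 32.5 in N31, 20.5 in N29, 8.76 in N33 and 7.20 in N27. More CA3 cells had it but AC cells with it had more, so the difference of -1.06 depended on the scale and was 0.40 with reads summed over cells. It was -0.11 without the AC cells with Cx3cr1 reads, and between -1.67 (without N4 or N8) and -0.65 (without N38) with single cells left out. Kcna6, of which 2355 exon bases overlap an opposite-strand transcript (Gm26673), was read in 3 AC and 9 CA3 cells (difference -0.65), and Kcna1 in 5 and 6 (0.60). With single cells left out Kcna6 ran from -1.41 (without N4) to -0.20 (without N38), and Kcna1 from 0.14 (without N46) to 1.06 (without N40). Kcna6 was -1.20 with scran size factors, and Kcna1 was -0.53 with all labelled cells. Kcna2, a main axonal subunit elsewhere in the brain, was read in 2 AC cells and in 1 CA3 cell. Kcna4 had reads in 2 AC and 4 CA3 cells, and Kcna5, Kcna7 and Kcna10 in none. All 13 CA3 cells had a read of some Kv1 gene, as did 8 AC cells.

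The beta subunits that bind Kv1 channels from the cytosol were read in 9 AC and 12 CA3 cells. Kcnab1 had the highest CPM per kb of exon of the family in 4 AC and 6 CA3 cells, Kcnab3 in 4 and 1, and Kcnab2 in 1 and 5. Kcnab3 was read in 6 AC cells, at 334 CPM in N42, 298 in N46, 280.0 in N41, 102 in N8, 3.52 in N43 and 1.33 in N7, and in 1 CA3 cell (N29, 120.0 CPM). The difference was 2.95 (3.67 relative). The 3 AC cells with the most Kcnab3 were the 3 cells with Cx3cr1 reads, and without them the difference was 0.91. An antisense transcript (Kcnab3os) covers 147 bases of its exons. The part of either in the Kcnab3 reads was not tested.

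Kcnab2 was read in 12 of 13 CA3 cells, at 486 CPM in N38, 209 in N37, 89.9 in N40, 84.3 in N29, 78.4 in N28, 66.2 in N33, 17.2 in N32, 14.7 in N39 and 2.86 to 7.18 in N26, N34, N31 and N30, and not in N27. In AC it was read in N5 (259.7 CPM), N46 (77.0 CPM) and N3X (42.9 CPM) only. The difference was -2.62 (-1.89 relative). All 11 CA3 cells with Kcnk1 also had Kcnab2, an overlap that could hardly be lower with Kcnab2 in 12 of 13 cells. The 1 AC cell with Kcnk1 had no read of Kcnab2. Kcnab1, which makes Kv1 channels inactivate, was read in 7 AC cells at 99.4 to 716 CPM and in 10 CA3 cells at 0.947 to 764 CPM. Its difference was 1.76 (2.48 relative), which was 0.28 with all labelled cells, 0.72 with reads summed over cells and 2.87 without the AC cells with Cx3cr1 reads. All 7 AC cells with Kcnab1 thus had about 100 CPM or more, whereas 6 of the 10 CA3 cells had less than that.

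Kv4 channels carry the subthreshold A-type current. Kcnd2 and Kcnd3 differed by 0.32 and -0.15, below the size called. With all labelled cells the difference of Kcnd3 was 1.18, past the size called. With reads summed over cells that of Kcnd2 was -1.30. Kcnd2 stood at 1044 CPM in N39 of CA3 (91.2% of the region's reads) against 26.5 to 236 CPM in 4 AC cells. Kcnd3 was highest in N27 of CA3 (947 CPM) and N41 of AC (688 CPM). Kcnip1, a calcium-binding subunit that brings Kv4 channels to the membrane, was read in 7 AC cells, at 519 CPM in N8, 242 in N4, 221 in N41, 188 in N43, 119 in N42 and in N7, and 97.9 in N3X. In CA3 it was read in N28 (755 CPM), N29 (592 CPM), N31 (149 CPM) and N38 (30.5 CPM). Its difference of 2.89 (3.61 relative) thus came from 7 of 10 against 4 of 13 cells, while the CA3 cells that had it reached as high as any AC cell. All 3 CA1 cells had Kcnip1 and no other gene of its family, at 781, 409 and 12.2 CPM. Kcnip2, Kcnip3 and Kcnip4 were read in 1, 2 and 4 AC cells and in 4, 3 and 5 CA3 cells.

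**Figure D5:**
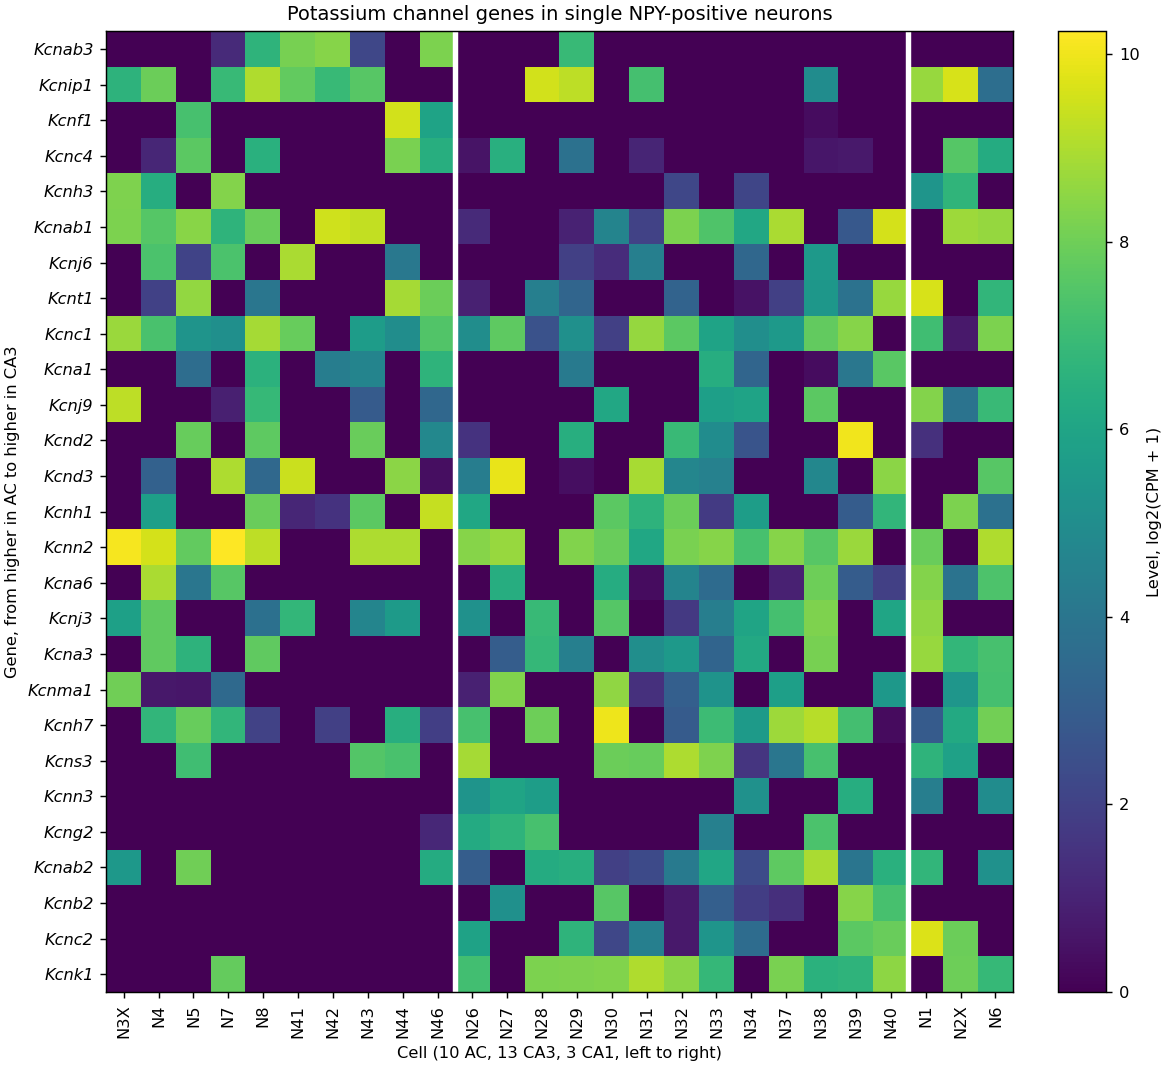
Level, log2(CPM + 1), of 27 potassium channel genes (rows, from higher in AC to higher in CA3) in 10 AC, 13 CA3 and 3 CA1 cells (columns). Kcnn2 and Kcnc1 are read in most cells of both regions, and the rows at the bottom, Kcnk1, Kcnc2, Kcnb2 and Kcnab2, are filled mainly in the CA3 columns.

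Among calcium-activated channels, Kcnn2, which encodes a small-conductance channel, had the most reads of the whole set in both regions. In AC it was read at 1212 CPM in N7, 1095 in N3X, 762 in N4, 595 in N8, 505 in N44, 500.4 in N43 and 216 in N5, and not in N41, N42 and N46. In CA3 it was read in 11 cells, from 67.3 CPM in N31 to 422 CPM in N39, and not in N28 and N40. Of the 7 AC cells with a read, 6 were above every CA3 cell, and the 3 AC cells without one were those with Cx3cr1 reads. The difference over all cells was -0.27, with mean log2 levels of 6.49 ± 4.53 and 6.76 ± 3.08, and without the 3 AC cells it was 2.51. With all labelled cells it was -1.27. Kcnn2 lies at chr18:45268860-45686024 on the plus strand, and opposite-strand transcripts overlap 607 bases of its exons.

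The other small-conductance genes were read in hippocampal cells and in none of the 10 AC cells used. Kcnn3 was read in 5 CA3 cells, at 83.1 CPM in N39, 62.0 in N27, 50.6 in N28, 38.6 in N26 and 35.1 in N34, and in 2 CA1 cells at 19.9 and 30.9 CPM. No AC cell had a read of it, so AC was at least 278-fold lower over the summed reads (149-fold without N39, which held 55.2% of them), and the difference was -2.20 (-1.47 relative). Kcnn1 was read in 3 CA3 cells and in none of the 10 AC cells. N4X, a second column of the N4 library, had 2 reads of it, and so did N45, labelled AC but not used. In the columns used, the 7 AC cells with a small-conductance gene had reads of Kcnn2 only, and 5 of the 12 CA3 cells with one had more than 1 of them. Kcnma1, the large-conductance channel, was read in 4 AC cells, at 258 CPM in N3X and at most 10.2 CPM in the others, and in 8 CA3 cells at 0.897 to 371 CPM. An opposite-strand transcript covers 1016 bases of its exons, and how such reads were assigned is not given in the sources used here. The difference of Kcnma1 was -1.71, or -0.99 relative, just below the size called. It was 0.18 with all labelled cells and -0.64 with reads summed over cells, and the call was also lost with a pseudocount of 10 CPM. Its auxiliary genes Kcnmb2 and Kcnmb4 were read in 2 and 3 AC cells and in 5 and 1 CA3 cells.

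The Kv7 genes encode the channels of the M current, which acetylcholine shuts. Kcnq3 was read in 2 AC cells, at 1122 CPM in N42 and 6.38 in N8, and in 6 CA3 cells at 0.316 to 155 CPM. The AC reads thus came almost all from N42, and the difference was -0.50. Kcnq5 was read in 4 AC and 2 CA3 cells, and Kcnq1, best known from heart and ear, in none.

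Channels of the ether-a-go-go group were read in all 23 cells. Kcnh7, which encodes a channel with slow deactivation, was read in 7 AC cells at 2.77 to 233 CPM and in 10 CA3 cells at 0.232 to 1009.6 CPM, a difference of -1.73 that was -0.16 with all labelled cells and -0.83 without the AC cells with Cx3cr1 reads. Kcnh1 was read in 6 AC and 8 CA3 cells and differed by -0.17, or by 1.25 with reads summed over cells. Kcnh3 was read at 326 CPM in N7, 303 in N3X and 82.8 in N4 of AC, and at 3.51 and 3.41 CPM in N32 and N34 of CA3. That is 3 of 10 against 2 of 13 cells and a difference of 1.97 (2.69 relative), which was 1.29 without N7 and 1.31 without N3X. It was 0.998 with all labelled cells, just below the size called, 5.32 with reads summed over cells and 2.95 without the AC cells with Cx3cr1 reads. Kcnh2 was read in 3 AC and 4 CA3 cells, and Kcnh8 in none.

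Sodium-activated channels were led by Kcnt1, read in 5 AC cells at 2.92 to 464 CPM and in 9 CA3 cells at 0.401 to 406 CPM, with a difference of 0.65. Single cells moved it past the size called or close to 0, from 0.02 without N44 to 1.17 without N40, and it was 1.07 with reads summed over cells. Kcnt2 was read in 2 AC and 3 CA3 cells. Kcnu1, known from sperm, was read in 2 CA3 cells.

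Inward rectifiers include the channels that G proteins open downstream of GABA-B, serotonin and other receptors (Kcnj3, Kcnj6, Kcnj9). Kcnj3 was read in 6 AC cells at 12.6 to 214 CPM and in 9 CA3 cells at 2.24 to 309.8 CPM, and differed by -0.66, with 1621 bases of its exons covered by a transcript on the opposite strand (Gm26794). That difference was -1.14 without N4 and -1.03 without N41, past the size called, and -0.28 without N42. Kcnj6 was read in 5 cells of each region, at 491 CPM in N41, 163 in N4, 159.8 in N7, 16.4 in N44 and 3.17 in N5 of AC and at 1.43 to 45.8 CPM in CA3, a difference of 1.70 (2.42 relative). With all labelled cells it was 0.34, and without N41 it was 1.04. Kcnj9 was read in 5 AC and 4 CA3 cells (0.38). Of these 3 genes, 7 AC cells had more than 1 against 4 CA3 cells, and 1 AC cell and 2 CA3 cells had none. Kcnj12 was read in 6 CA3 cells at 0.200 to 50.1 CPM and in no AC cell. Kcnj10, the main potassium channel of astrocytes, was read in 1 AC and 1 CA3 cell, and Kcnj16, its partner there, in neither region.

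The family of small KCNE subunits had no read in the 26 cells for any of its 5 rows. In all, 33 genes had no read in the 23 AC and CA3 cells. Besides those named above these were Kcng1, Kcng3, Kcng4, Kcnh4, Kcnj1, Kcnj5, Kcnj8, Kcnj13, Kcnj15, Kcnmb1, Kcnmb3, Kcnn4, Kcns1 and Kcnv2. Reads of Kcnh4, Kcnj5 and Kcnk5 were found in CA1, and 24 of the genes had no read in any of the 47 columns.

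Of 16 genes for known partners of these channels that the rule does not cover, 9 met the same minimum of cells, of which 1 was higher in AC by the size (11.1%, against 13.6% of all genes) and 4 in CA3 (44.4%, against 43.2%). These shares lay near those of all genes, so the values are given as a description. Ank3, the scaffold of the axon initial segment that binds Kv7 channels, differed by 1.17 (1.90 relative). Dpp6, which speeds up Kv4 channels, was read in 4 AC and 8 CA3 cells (-2.47, or -1.75 relative), whereas its paralogue Dpp10 was read in 7 and 9 (0.52). Amigo1 and Vapa, both partners of Kv2 channels, differed by -1.29 and -1.89 (-0.57 and -1.17 relative), and Lgi1, a secreted protein tied to Kv1 channels, by -1.71 (-0.99 relative). Adam22, Adam23 and Cntnap2 lay within the size at -0.77, -0.32 and 0.38.

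The 3 CA1 cells are too few to describe a region, and their values are set beside the others only. With Kcnk1 in 2, Kcnc2 in 2 and Kcnn3 in 2 of 3 cells, they had reads of genes that were read in at most 1 of the 10 AC cells. With Kcnip1 in 3 of 3 cells and Kcnh3 in 2, they also held genes read more often in AC. Kcna3 was read in all 3, at 402, 152 and 109.6 CPM, and led the set per kb in N1 and N6. Kcnd1, at 426 CPM in N2X, had its highest level there among the 26 cells.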

How the data were processed

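Single-cell cytosol was collected through a patch pipette and sequenced as amplified cDNA. The deposited values were raw read counts per gene that the authors made from reads trimmed with Trimmomatic and Flexbar and aligned to GRCm38 with STAR. The labels name featureCounts for the counting and the methods name HTSeq, and tool versions and the strand setting chosen are not given in the sources used here. Rows that share a symbol had been averaged by the authors. Counts were divided by the total of the cell and given as CPM, and levels were log2(CPM + 1), with a pseudocount of 1 CPM. Differences were means over cells, AC minus CA3, over 5964 genes that 10 or more of the 23 cells had reads of, and a difference of 1 was called. No label names the mouse of a cell (8 mice in all), so no p-value was computed. Detection meant at least 1 read. Shares have exact Clopper-Pearson and summed reads exact Poisson intervals at 95%, which cover counting error only. Reads of amplified cDNA are not independent molecules, and cells from the same mouse are not independent either. The intervals also do not allow for genes having been picked for their difference. A zero group was set to 3 reads. N4 and N4X hold the same library (r = 0.9998 across genes), and only N4 entered.

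Alternatives were size factors from scran 1.30.0 (pools of 10 and 20 cells), edgeR 4.0.16 and DESeq2 1.42.0, other pseudocounts, summed reads, thinned reads (20 draws), all labelled cells and each cell left out. Leaving out the 3 AC cells with Cx3cr1 reads, and the call on shares of cells with its settings (without each cell, 10 reads asked for), were chosen after seeing the data. The genes, families, partner genes and markers were chosen with earlier results of these data known. Full values were given for genes that met this minimum, per-cell values for those with the 6 largest differences in each direction and the 6 highest levels per kb, and other genes were named by family. Per-cell values given beyond these were chosen after their values were seen. Scripts were tested on simulated data and run in Python 3.11.15 and R 4.3.3. Exon lengths, coordinates and coding sequences came from GENCODE vM21. Some genes and 1 sequence are not reported here, though they count in the totals.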

Additional observations from a re-analysis of the deposited data

Results flagged for a closer look

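In AC, 4 of 30 values tested had a single cell standing apart from the other 9 by more than Dixon's 95% limit for its gap, a limit that chance alone passes in about 1 in 20 groups of untied values. Kcnc1 was at a level of 0 on the log2(CPM + 1) scale in N42, while the other 9 cells began at 5.01. Kcnk1 was at 7.81 in N7 and at 0 in the other cells. Kcnma1 was at 8.02 in N3X, with the next cell at 3.49. Kcng2 was at 1.16 in N46 and at 0 elsewhere, from 4 reads. For Kcnk1 and Kcng2 the other 9 cells were tied at 0, so any gene read in 1 cell passes the limit whatever its level. For Kcnma1, 6 of the 10 cells were tied at 0. The rate of chance applies to none of these 3. N7 held all AC reads of Kcnk1, and N3X held 97.7% of those of Kcnma1.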

How the results depend on the processing

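The 4 genes higher in AC became 10 with no minimum of cells and 8 with the median of all genes subtracted, and ranged from 4 to 6 when each cell was left out. The 7 genes higher in CA3 became 15 with no minimum, and 4 with a pseudocount of 10 CPM, with all labelled cells or without the AC cells with Cx3cr1 reads, and ranged from 6 to 9 when each cell was left out. Kcna3 turned to 0.40 with reads summed over cells, and Kcnma1 turned to 0.18 with all labelled cells. The cause was not tested. Of 544 recomputed differences of single genes past the size, these 2 changed sign. Of 352 of genes within it, 41 did, in 7 genes, among them Kcnn2 (2.51 without the AC cells with Cx3cr1 reads), Kcnd2 (-1.30) and Kcnh1 (1.25, both with summed reads). The median difference of all genes ran from -0.09 (summed reads) to -1.11 (pseudocount 0.1). The difference in genes detected per cell was -2.39 with all labelled cells, -3.12 without the AC cells with Cx3cr1 reads and -4.76 with each cell thinned to the same total reads. Kcnd3 turned from -0.15 to 1.18 with all labelled cells, and Kcnab1 lost its call with summed reads (0.72). Kcna3 lost its call without any of 13 single cells, N38 among them (-0.65), and Kcnf1 was at 1.44 without N44. No paired analysis was possible because the result comes from no test. With 10 and 13 cells and no mouse named, the spread between animals is unknown.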

Other observations

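Most columns outside the set of 26 cells held fewer potassium channel genes. The 8 other CA3 columns had 2 to 6 of them, at 253 to 4897 CPM. Of these 8, 7 had no read of Gad1, Gad2 or Npy, 4 had Mbp at 1000 CPM or more, and 3 had reads of Aqp4 and also of Kcnk1 (507, 601 and 3182 CPM), and all 8 enter the values with all labelled cells. The 9 other AC columns had 1 to 26 of the genes, at 4.49 to 15051 CPM. Of these 9, 4 (N10, N49, N50 and N52) had no read of Gad1, Gad2 or Npy, and all 9 enter the values with all labelled cells. Most of the sum in N49, the highest of the 9, was Kcnt2 at 10496 CPM, in a column with Camk2a at 14899 CPM. N45, labelled AC, had 26 of the genes, with Kcnc2 at 806 CPM and Kcnk1 at 216 CPM, which were read in 0 and 1 of the 10 AC cells described. It had Gad1 at 1964, Gad2 at 1515 and Npy at 281 CPM, and also Csf1r at 417 and Mbp at 366 CPM. Kcnk1 was also read in N10 of AC at 836 CPM, a column of 331299 reads with no read of Gad1, Gad2 or Npy and with the astrocyte markers Gja1 at 6215, Slc1a3 at 7380.0 and Aqp4 at 933 CPM, so it is no example of an NPY-positive AC cell. The 2 dentate gyrus columns had 2 and 6 of the genes, and the NPY-negative CA3 column 6, with Kcna1 at 384 CPM.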
